A study of Mus musculus with 8 samples.

Results

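Sham-operated mouse kidney was described here by its microRNAs (miRNAs) alone, from the 4 sham arrays among the 8 arrays of the series. One value was taken per miRNA and array, the summed signal of its probes, and 318 of the 1881 miRNAs on the array were detected on all 4 sham arrays. These 318 are the detected miRNAs named below. The sham mice had a midline incision and no other kidney surgery, while the other 4 arrays, from mice with ischemia-reperfusion injury, were not used. The series' design text gives the mice as male C57BL/6 aged 9 weeks, and the labels do not say whether each sample is a separate animal. Total RNA was taken from 30 mg of whole kidney and 100 ng of it was labelled. The SDs below therefore measure the spread between 4 samples of mixed kidney tissue, in which more cells of a type and more RNA per cell cannot be told apart. The samples carry the numbers 1, 2, 3 and 6 in their titles and are written sham 1, sham 2, sham 3 and sham 6.

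A miRNA is cut from a hairpin precursor as a duplex of a 5p and a 3p arm, and usually one arm is loaded into an Argonaute protein while the other is degraded. The loaded strand finds target mRNAs mainly through its seed, bases 2 to 8, so miRNAs with one seed form a family with overlapping targets. The kidney is largely tubule epithelium, known for the miR-192/194, miR-30, miR-10 and miR-200 miRNAs, with endothelium marked by miR-126 and connective cells marked by miR-143/145 and miR-199/214. The array reports signal in intensity units, and each miRNA has probes of its own length and base content. The order given below is thus an order of signal and not of molecule number.

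The mature sequences that carry the description are shown first, 5′ to 3′, from RefSeq (GRCm38.p6), with the seed in capitals. The first set holds the 4 brightest entries of the array, all with late catalogue numbers, and shows that no seed was common to them.
miR-6366: aGCUAAGGggcccggggagcca
miR-3963: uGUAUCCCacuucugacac
miR-5100: uCGAAUCCcagcggugccucu
miR-3968: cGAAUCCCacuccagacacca

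Although their seeds differ, miR-5100 and miR-3968 share the run CGAAUCCCA, and miR-3963 and miR-3968 share AUCCCACU. The longest run that miR-6366 shares with any of the other entries is 3 bases. miR-6366 is rich in G and C, at 72.7% of its bases. The 2 probes of miR-6366 and the 2 of miR-5100 are shown because they are short and pair only with the 3′ end of the miRNA.
miR-6366 probe: tggctccccgg
miR-6366 probe: tggctccccggg
miR-5100 probe: agaggcaccgctg
miR-5100 probe: agaggcaccgctgg

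The miR-6366 probes pair with bases 12 to 22 and 11 to 22 of the miRNA, and neither reaches the seed. The 2 probes of miR-5100 differ by 1 base in length, and the longer gave 7.73-fold ± 0.0754 (SD, n = 4) the signal of the shorter. For comparison, the probes of miR-192-5p pair with 18 and 19 bases.

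The let-7 family is shown because it is the largest detected family and its members differ outside the seed by only a few bases.
let-7a-5p: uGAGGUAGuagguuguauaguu
let-7f-5p: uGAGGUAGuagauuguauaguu
let-7c-5p: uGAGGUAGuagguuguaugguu
let-7b-5p: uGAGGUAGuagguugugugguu
let-7g-5p: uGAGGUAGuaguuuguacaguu
let-7d-5p: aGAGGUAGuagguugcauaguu
let-7i-5p: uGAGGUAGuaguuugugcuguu
let-7e-5p: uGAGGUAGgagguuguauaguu
miR-98-5p: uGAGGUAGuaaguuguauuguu

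The next sequences are the other bright miRNAs that lead a family, grouped by seed. The table holds no entry for miR-30b-5p and miR-30d-5p.
miR-30a-5p: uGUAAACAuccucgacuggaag
miR-30c-5p: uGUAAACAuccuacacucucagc
miR-30e-5p: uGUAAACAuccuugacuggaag
miR-29a-3p: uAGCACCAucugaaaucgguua
miR-29b-3p: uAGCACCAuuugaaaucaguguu
miR-29c-3p: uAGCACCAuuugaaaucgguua
miR-26a-5p: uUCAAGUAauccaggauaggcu
miR-26b-5p: uUCAAGUAauucaggauaggu
miR-21a-5p: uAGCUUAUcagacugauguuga
miR-22-3p: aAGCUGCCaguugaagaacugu
miR-126a-3p: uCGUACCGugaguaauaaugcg

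The kidney and epithelial miRNAs are shown because close relatives among them gave very different signals.
miR-192-5p: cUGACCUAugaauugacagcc
miR-215-5p: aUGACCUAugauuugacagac
miR-194-5p: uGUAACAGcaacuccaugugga
miR-10a-5p: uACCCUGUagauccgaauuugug
miR-10b-5p: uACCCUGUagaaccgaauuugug
miR-200b-3p: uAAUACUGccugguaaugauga
miR-200c-3p: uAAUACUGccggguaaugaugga
miR-429-3p: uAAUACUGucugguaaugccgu
miR-200a-3p: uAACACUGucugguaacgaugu
miR-141-3p: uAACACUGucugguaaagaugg

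The 2 most uneven groups between the arrays are shown last. They are miR-451a of red blood cells with miR-144-3p from the same cluster, and some miR-3473 entries with miR-5128, miR-706 and miR-5121.
miR-451a: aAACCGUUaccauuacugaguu
miR-144-3p: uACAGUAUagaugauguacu
miR-3473b: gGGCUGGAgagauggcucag
miR-3473a: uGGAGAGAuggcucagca
miR-3473e: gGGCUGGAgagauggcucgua
miR-5128: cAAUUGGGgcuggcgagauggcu
miR-706: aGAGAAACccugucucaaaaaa
miR-5121: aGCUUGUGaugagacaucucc

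The arrays differed in detection and signal, and sham 6 was lowest in both. Between 327 and 379 miRNAs were detected per array (mean 358 ± 22.2, SD, n = 4), and the summed signal of the 318 detected miRNAs was 656867 on sham 1, 572018 on sham 2, 563413 on sham 3 and 511616 on sham 6. Each array held 56430 miRNA spots, of which 0 were saturated and 1433 to 1560 were marked as outliers and left out. The spots of one probe, 15 in the median, had a median coefficient of variation (CV, the SD as a percent of the mean) of 4.78% to 6.05% per array. This spot CV was highest on sham 6. Ranks of signal correlated with Spearman's rho of 0.971 to 0.987 over the 6 pairs of arrays, a description over 318 miRNAs that share probes and slide.

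The sham signal was dominated by a few entries. miR-6366 gave 222149, 192798, 190795 and 168884 units on sham 1, 2, 3 and 6, which was 33.6% ± 0.399 (SD, n = 4) of the summed signal. miR-3963 gave 153950, 130623, 139014 and 129482 units, or 24.1% ± 1.13. The lowest array of miR-6366 lay above the highest of miR-3963, so their order was the same on every array. miR-5100 followed with 34877, 28204, 27942 and 24444 units (4.99% ± 0.225), and miR-3968 with 21867, 18983, 17142 and 15179 units (3.16% ± 0.187). These 4 entries held 65.8% ± 0.74 of all signal, the 10 brightest miRNAs 74.5% ± 0.491 and the 20 brightest 82.7% ± 0.538. Because the 4 entries set every share, shares below are also given of the signal that remains without them, the remaining signal. Without them the 10 brightest miRNAs held 36.8% ± 0.919 of the remaining signal.

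The signal of these 4 entries depended on the probe. The longer probe of miR-3968 gave 20.2-fold ± 1.29 the signal of the shorter, the highest such ratio among the 174 detected miRNAs whose brightest and dimmest probes were both well above background. The median ratio of those 174 was 1.63-fold, with quartiles of 1.27 and 2.21. For miR-6366 the ratio was 2.07-fold ± 0.08 in favour of the shorter probe, and for miR-3963 2.3-fold ± 0.0387 in favour of the longer. Which RNA these probes bound was not tested.

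**Figure D1:**
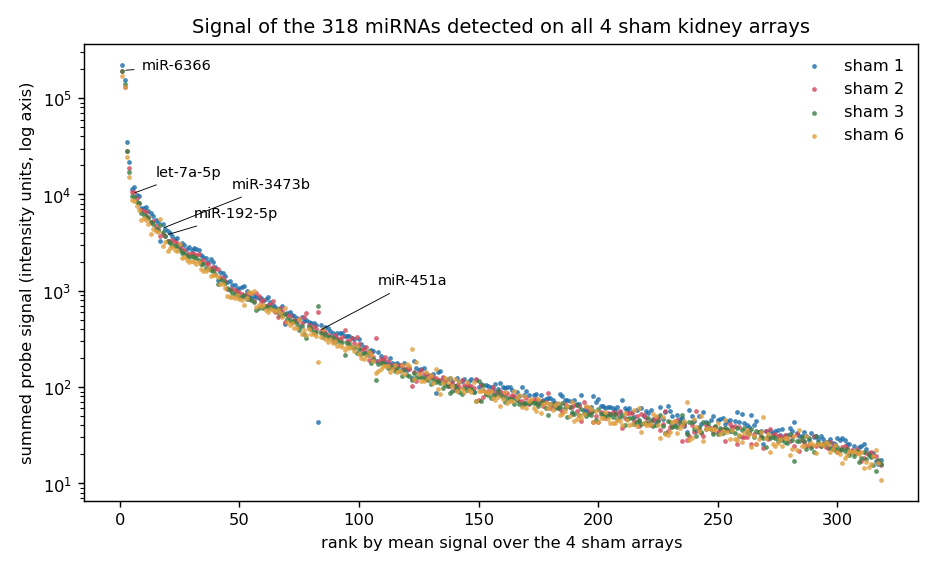
Summed probe signal (intensity units, log axis) of the 318 detected miRNAs against their rank by mean signal, with 1 point per sham array. Means fall from 193657 units for miR-6366 to 15.0 for miR-3077-5p, and miR-451a and miR-3473b stand out by the distance between their arrays.

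Behind these 4 came the let-7 miRNAs, which restrain growth-related mRNAs and are abundant in differentiated tissue. let-7a-5p gave 11508, 10630, 9630 and 8740 units on sham 1, 2, 3 and 6, and let-7f-5p 11866, 10531, 9464 and 8517. Their ratio was 1.01 ± 0.0249, and let-7a-5p was the brighter on 3 of 4 arrays, so these neighbours did not differ beyond their spread. let-7c-5p (8769 ± 983 units, SD, n = 4) was dimmer than let-7f-5p on each array. let-7b-5p (6452 ± 627) and let-7g-5p (5119 ± 690) also ranked among the 20 brightest.

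miR-30a-5p, abundant in tubule and glomerulus, was the brightest miRNA outside let-7 and the late entries, at 9712, 8213, 8128 and 6931 units. It lay above miR-21a-5p, which is known for its rise in injured kidney and read 7239, 6896, 6420 and 5419 units in these sham samples. The order of miR-21a-5p, let-7b-5p and miR-26a-5p (6373 ± 854) was not stable, since each neighbouring pair kept its order on 3 of 4 arrays. miR-30c-5p (5780 ± 752) lay below miR-26a-5p and above miR-29a-3p (5170 ± 1066) on all 4 arrays. The places of miR-29a-3p and let-7g-5p were exchanged on 2 of 4 arrays.

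An endothelial and a kidney epithelial miRNA were among those in the remaining places of the 20 brightest. miR-22-3p (4705 ± 550 units), a broadly expressed miRNA, lay above miR-126a-3p on each array. miR-126a-3p, the miRNA of endothelial cells, gave 5216, 4399, 4270 and 4052 units. miR-3473b (4371 ± 1048) had no fixed place: it was above miR-29b-3p (3964 ± 839) on 2 of 4 arrays. miR-192-5p, an miRNA of kidney and gut epithelium, gave 4393, 3725, 3732 and 3204 units and lay above miR-29c-3p (3339 ± 635) on each array. Of the 19 neighbouring pairs among the 20 brightest, 12 had the same order on all 4 arrays, and 18 of the 20 were among the 20 brightest of each single array. Over all 317 neighbouring pairs only 29 kept their order, so ranks further down are approximate.

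Most detected miRNAs were dim. The 47 with a mean of 1000 units or more held 92.4% ± 0.346 of the summed signal, the 100 between 100 and 1000 units held 6.22% ± 0.322, and the 171 below 100 units held 1.4% ± 0.0488. The median CV rose in that order, from 5.56% to 6.79% and 11.9%.

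Grouped by seed, the sham kidney signal was concentrated in few families. A RefSeq mature sequence was matched for 274 of the 318 miRNAs, which held 97.6% ± 0.0711 of the signal, and each of the 44 others was kept as a family of its own. The 318 miRNAs formed 267 families, of which 29 had more than 1 member and together held 80 members. The 5 brightest families held 73.9% ± 0.463 of all signal, but 4 of these were the single late entries. Of the remaining signal the 5 brightest families held 46.5% ± 1.3 and the 10 brightest 59.4% ± 0.715. In these shares miR-23b-3p, miR-30b-5p and miR-30d-5p, which are among the 44, were counted apart from their relatives.

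The let-7 seed GAGGUAG led with 23.6% ± 0.377 of the remaining signal (8.07% ± 0.292 of all). Per array its share was 23.7%, 24.0%, 23.4% and 23.2% on sham 1, 2, 3 and 6, a narrow range. All 9 let-7 and miR-98 5p miRNAs were detected, while let-7k and miR-1961, which carry the same seed, were detected on no array. Within the family let-7a-5p was 3.3-fold ± 0.0333 the signal of let-7d-5p, 10.1-fold ± 0.0611 that of let-7e-5p and 37.0-fold ± 0.625 that of miR-98-5p. These ratios varied little between arrays although the signals themselves differed. let-7a-5p and let-7e-5p differ by 1 base, and cross-hybridisation among such relatives was not tested.

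The miR-30 5p miRNAs came next. miR-30a-5p, miR-30c-5p and miR-30e-5p (3282 ± 490 units) share the seed GUAAACA and held 8.77% ± 0.318 of the remaining signal. With miR-30b-5p (2274 ± 329) and miR-30d-5p (916 ± 122), which were joined by name, the 5 made up 10.4% ± 0.365. miR-384-5p, with the same seed and known from brain, was detected on no array. miR-30a-5p and miR-30e-5p differ by 1 base, and the former was 2.52-fold ± 0.0665 the brighter.

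The miR-29 family, which represses collagens and other matrix genes, held 6.29% ± 0.677 of the remaining signal. Its share was less even than that of let-7: 6.98%, 6.12%, 6.65% and 5.42% on sham 1, 2, 3 and 6. All 3 members were lowest on sham 6, at 3862 units for miR-29a-3p, 2945 for miR-29b-3p and 2610 for miR-29c-3p. The ratio of miR-29a-3p to miR-29c-3p was steadier, at 1.54 ± 0.0444.

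Families of intermediate size followed. miR-26a-5p and miR-26b-5p (seed UCAAGUA) held 4.43% ± 0.142 of the remaining signal, and 6 miRNAs of the miR-15/16 seed AGCAGCA, which restrains the cell cycle, held 3.41% ± 0.0338. The others with that seed, miR-195b, miR-6342, miR-6353 and miR-6419, were detected on no array. miR-21a-5p held 3.3% ± 0.145 without a second detected member, since miR-21c of the same seed was detected on no array. miR-22-3p held 2.39% ± 0.0525, miR-126a-3p 2.28% ± 0.07 and the miR-10 pair 2.1% ± 0.0761. The seed of miR-3473b and miR-3473e held 2.31% ± 0.785, with the widest spread among the 12 brightest families. miR-23b-3p had no RefSeq sequence and was counted apart from miR-23a-3p. Joined by name, this pair held 2.75% ± 0.0485 of the remaining signal, more than miR-22-3p.

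**Figure D2:**
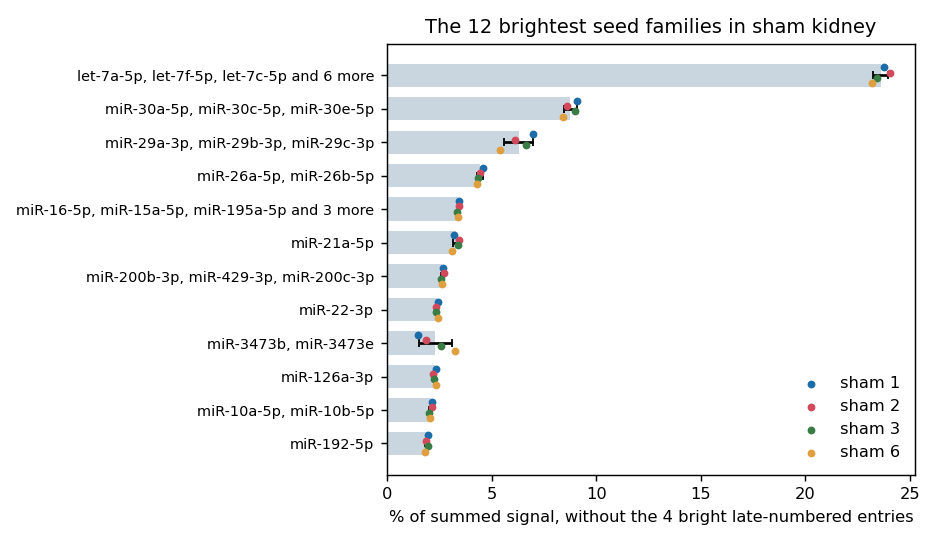
Share of the remaining signal (%, without miR-6366, miR-3963, miR-5100 and miR-3968) in the 12 brightest seed families, as mean (bar) and SD (line) over the 4 sham arrays, with 1 point per array. The let-7 family lies near 23.6%, and the miR-30 family near 8.77% without miR-30b-5p and miR-30d-5p. Only the miR-29 and miR-3473 families spread visibly between arrays. miR-23a-3p and miR-23b-3p are counted as separate families and are not shown.

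The miR-200 family, which keeps epithelial cells epithelial by repressing Zeb1 and Zeb2, comes from a pair of gene clusters whose signals differed. The 3p miRNAs of the miR-200b/200a/429 cluster summed to 7560 ± 1005 units, and those of the miR-200c/141 cluster to 698 ± 85.7. miR-200b-3p (3723, 3381, 3023 and 2843 units) was 11.1-fold ± 0.455 the signal of miR-200c-3p (293 ± 36.7), and miR-200a-3p (2613 ± 385) 6.44-fold ± 0.347 that of miR-141-3p (405 ± 49.3). The probe targets of the bright cluster lie at chr4:155429840-155429855 for miR-200b-3p, chr4:155429063-155429079 for miR-200a-3p and chr4:155428068-155428085 for miR-429-3p (mm9, the build of the array's annotation). Those of the dim cluster lie at chr6:124668392-124668406 for miR-200c-3p and chr6:124667985-124668000 for miR-141-3p. Each pair differs by 2 bases and has its own probes, and cross-hybridisation between them was not tested.

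miR-192-5p and miR-194-5p, which are made from 1 transcript and depend on the hepatocyte nuclear factors of epithelium, held 2.8% ± 0.118 of the remaining signal together with miR-192-3p. The probe target of miR-192-5p lies at chr19:6264860-6264877 (mm9). miR-194-5p (1721 ± 293 units) has a second gene, beside which lies Mir215 in the mouse genome. miR-215-5p has the same seed as miR-192-5p, but was detected on no array, and its highest background-subtracted signal was -2.87 units. Its probe target is at chr1:187137493-187137509 (mm9).

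miR-10a-5p (2272 ± 316 units) and miR-10b-5p (1871 ± 260), which lie among the Hox genes that pattern the body axis, differed 1.21-fold ± 0.01. RefSeq places Mir10a within Hoxb3 and Mir10b within Hoxd3 and Hoxd4. miR-196a-5p (935 ± 109 units), another Hox cluster miRNA, was 2.74-fold ± 0.114 the signal of miR-196b-5p.

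Of the 257 miRNA genes of detected miRNAs found in the RefSeq table, 152 (59.1%) lay inside a protein-coding gene and 31 inside a long noncoding RNA gene only. Among the brightest, Mir126a lay in Egfl7, an endothelial gene, Mir21a in Vmp1, and Mir30e with Mir30c-1 in Nfyc. Both Mir26a genes and Mir26b lay in Ctdspl, Ctdsp2 and Ctdsp1, which encode related phosphatases, and Mir107 and both Mir103 genes lay in the pantothenate kinase genes Pank1, Pank3 and Pank2. miR-107-3p was 1.74-fold ± 0.0157 the signal of miR-103-3p. By position, 66 of these genes fell into 27 groups of neighbours within 10 kb. Because 25 detected miRNAs come from more than 1 gene, the signal of let-7f-5p (Mirlet7f-1 and Mirlet7f-2) or miR-29b-3p (Mir29b-1 and Mir29b-2) could not be assigned to a locus.

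Signals of neighbouring miRNAs ranged from like to unlike. The brightest detected miRNA of a group was 1.31-fold ± 0.0223 the dimmest for Mir29a and Mir29b-1, 1.36-fold ± 0.0216 for Mirlet7c-2 and Mirlet7b, and 1.68-fold ± 0.0422 for Mir25, Mir93 and Mir106b. In other groups the range was wider. Within the group of Mir17, Mir18, Mir19a, Mir20a, Mir19b-1 and Mir92-1, miR-19b-3p (985 ± 134 units) and miR-20a-5p (525 ± 70.4) were bright while miR-17-5p (36.8 ± 6.74) was dim. miR-20a-5p and miR-17-5p differ by 2 bases, yet their signals differed 14.4-fold ± 0.72.

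Near-identical miRNAs made up much of the remaining signal. There were 35 pairs with at most 2 differing bases, and the 47 miRNAs in them held 53.9% ± 0.398 of the remaining signal. The ratio within a pair ranged from 1.01 for let-7a-5p and let-7f-5p to 92.1 ± 13.9 for miR-3473b and miR-3473e. The split of signal between such relatives is therefore uncertain. Whether the family shares above are less so was not tested.

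The arms of each precursor were compared next. An arm counted as brighter where its signal was at least 2-fold that of the other arm on all 4 arrays, with an arm not detected on an array set to the lowest detected signal there or its own signal, whichever was higher. Of 228 precursors with both arms on the array and at least 1 of them detected, the 5p arm was brighter in 125, the 3p arm in 77 and neither in 26. These counts depend on the margin and the background: they were 91 for 5p and 51 for 3p at a 4-fold margin, and 48 and 36 with normexp background correction, whose offset raises dim arms. In 180 of the 228, 1 arm was detected on all 4 arrays and the other on none. Those ratios depend on the value set for the undetected arm, which is not the detection limit of its own probes. They are therefore not strict lower bounds. Only 29 precursors had both arms on all 4 arrays, and there the count was 10 for 5p, 12 for 3p and 7 for neither.

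Among the 10 brightest precursors the 5p arm was brighter in 9. let-7a-5p was 435-fold ± 24.1 the summed signal of its 2 3p arms. Against let-7a-1-3p alone the ratio was lower, at 419-fold ± 26.2, so the other 3p arm took from the background-subtracted sum instead of adding to it. For let-7f and let-7b, whose 3p arms were detected on 3 of 4 arrays, the 5p arm was at least 190-fold and 128-fold the brighter on every array. The 3p arms of let-7c and let-7g were detected on no array, and with their set values the ratios were at least 706-fold and 399-fold. miR-21a and miR-26a were of the same kind, with 5p at least 498-fold and 505-fold the set values of 3p arms that no sham array detected. All let-7 precursors named here thus gave their signal from the 5p arm.

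miR-30a, miR-30c and miR-30e kept more of the second arm than let-7a did. miR-30a-5p was 20.1-fold ± 0.604 the signal of miR-30a-3p (408 ± 44.3 units), and miR-30e-5p 8.88-fold ± 0.297 that of miR-30e-3p (369 ± 43.5). miR-30c-5p was 45.1-fold ± 2.05 the summed signal of miR-30c-1-3p and miR-30c-2-3p. In miR-30b the 3p arm was dimmer still, at 0.00679% of all signal against 0.394% for the 5p arm. miR-30d-3p was not among the detected miRNAs. The 3p arms of miR-30a and miR-30e differ by 1 base and their signals differed 1.11-fold ± 0.0164, against 2.52-fold for the 5p arms.

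Under the rule for undetected arms, miR-29a-3p was at least 232-fold the 5p arm on every array. The 3p arm was the bright one in this precursor, the only such case among the 10 brightest. It was also brighter in miR-29c (48.2-fold ± 1.86), miR-22 (45.5-fold ± 0.955), miR-126a (30.7-fold ± 2.26), miR-200b (70.3-fold ± 9.98), miR-200a (69.6-fold ± 4.65) and miR-24 (59.2-fold ± 1.67). In miR-192 the 5p arm was 98.7-fold ± 4.1 the brighter, and in miR-10a 30.7-fold ± 2.71.

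A few precursors gave both arms at like signal. The ratio of 3p to 5p was 1.28 ± 0.0209 for miR-140, an miRNA best known from cartilage, and 1.38 ± 0.0169 for miR-17, whose 5p arm was dim. For miR-652 the ratio of 5p to 3p was 1.42 ± 0.0625. Arms have different probes, and these ratios are smaller than the median ratio between probes of 1 miRNA, 1.63-fold. miR-199a, of fibroblasts and vessel walls, lay above the margin, with the 3p arm 3.82-fold ± 0.072 the 5p arm.

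**Figure D3:**
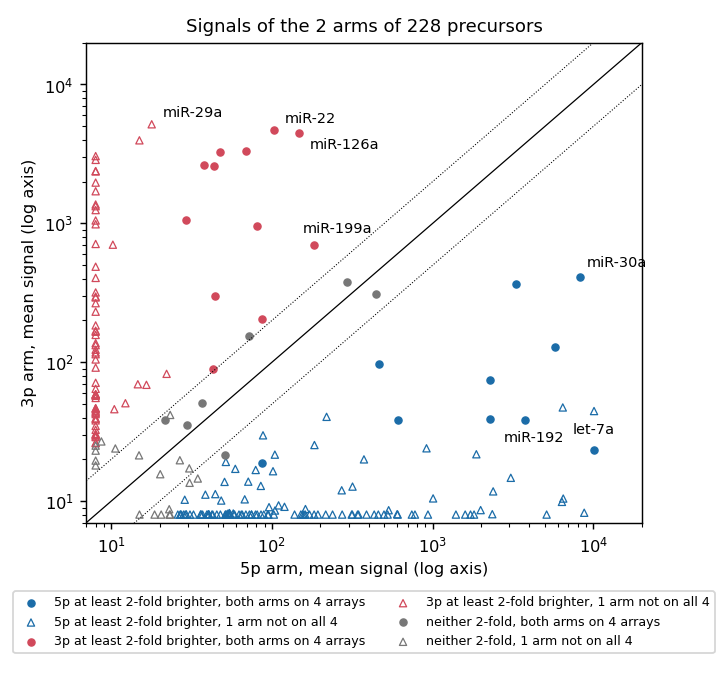
Mean signal of the 3p arm against the 5p arm (both log axes) for 228 precursors over the 4 sham arrays. Colour gives the arm at least 2-fold brighter on all 4 arrays, filled circles have both arms detected on all 4 arrays, and open triangles do not. The solid line marks equal signal and the dotted lines 2-fold. The 125 blue and 77 red points lie mostly along the axes, where an undetected arm takes its set value.

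The spread between the sham arrays was small for most miRNAs. Signals were divided by the 75th percentile of the detected miRNAs on each array (452, 439, 371 and 356 units on sham 1, 2, 3 and 6) and brought back to a common level. The results are scaled signals. After scaling the median CV was 9.12%, with quartiles of 5.64% and 15.1%, against 12.9% before. Which array was high or low across miRNAs depended on the scaling: sham 2 was lowest for 200 of 318 miRNAs after scaling by percentile, for 43 after scaling to the summed signal and for 38 without scaling.

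The most even miRNAs included 2 of the miR-200 family. miR-141-3p had the lowest CV, at 0.811%, with scaled signals of 407, 399, 402 and 403. miR-141-3p lies close to the 75th percentile that set the scale, which lowers its CV by construction. Its CV was 0.524% without sham 1, 1.63% without sham 3, 2.75% without sham 6 and 6.14% after scaling to the summed signal. The others were miR-200c-3p (1.41%), miR-877-3p (1.82%), miR-98-5p (1.98%), miR-222-3p (2.3%), miR-350-3p (2.45%), miR-6976-3p (2.6%) and miR-196a-5p (2.86%). Single arrays moved several of these. The CV of miR-200c-3p was 0.412% without sham 3 and 4.21% without sham 6, and that of miR-6976-3p 0.859% without sham 1, 3.92% without sham 3 and 4.04% without sham 6. Without sham 6 it was 2.82% for miR-877-3p and 5.5% for miR-350-3p, and without sham 2 it was 1.19% for miR-196a-5p. The order of the most even miRNAs is therefore not firm. After scaling to the summed signal these 7 ranged from 4.03% for miR-196a-5p to 8.25% for miR-350-3p. The median of all detected miRNAs under that scaling was 8.59%, so miR-350-3p was near a typical value there. Which miRNAs were the most even thus depended on the scaling.

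miR-451a, which red cell precursors make without Dicer, was the most uneven. Its scaled signals were 38.7 on sham 1, 555 on sham 2, 749 on sham 3 and 208 on sham 6, a CV of 83.2%. The highest was 19.4-fold the lowest, and sham 1 stood far below the others; without sham 1 the CV was 54.3%. miR-144-3p, from the same cluster, was detected on 2 arrays and had the same order, with scaled signals of 51.8 on sham 3, 36.4 on sham 2, 10.9 on sham 6 and -1.79 on sham 1. miR-486a-5p, also of red cells, was detected on no array. Its scaled readings were 8.2, 8.14, 1.88 and 0.27 on sham 3, 2, 6 and 1. Before scaling it read 8.89 on sham 2 and 7.55 on sham 3, so the order of these arrays depended on the scaling. miR-144-5p, likewise detected on no array, did not keep the order of miR-451a. Its readings were 2.29 on sham 3, 1.49 on sham 2, -0.497 on sham 1 and -1.78 on sham 6. The summed red cell list ranged from 43.8 to 748 units before scaling. The content of blood in the samples was not given, and its part in these values was not tested.

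White cell miRNAs did not follow that order. miR-146a-5p, induced by inflammatory signalling, was highest on sham 2, with scaled signals of 167, 298, 129 and 159 on sham 1, 2, 3 and 6 (CV 39.7%, and 13.4% without sham 2). miR-142a-3p, of blood cells in general, was also highest on sham 2 and lowest on sham 3, at 303, 355, 236 and 276. miR-223-3p, of neutrophils and other myeloid cells, was even at 111, 115, 105 and 124.

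A second uneven group was highest on sham 6. miR-3473b had scaled signals of 2935, 3424, 5244 and 6349 on sham 1, 2, 3 and 6 (CV 35.4%), and its order was the same before scaling, from 3300 to 5611 units. miR-5128 (111, 93.6, 127 and 280), miR-706 (30.7, 26.1, 35.8 and 80.2) and miR-5121 (22.6, 21.5, 31.9 and 55.0) had sham 6 at least 1.5 times above every other array. Without sham 6 their CVs fell from 56.1%, 57.9% and 47.5% to 12.8%, 13.1% and 19.6%. miR-3470a was highest on sham 6 as well, at 208 against 107 to 142 elsewhere. Several of these entries share sequence, as the letters printed above show. miR-3473b and miR-3473e share the run GGGCUGGAGAGAUGGCUC, miR-3473b and miR-3473a share UGGAGAGAUGGCUCAG, and miR-5128 shares GAGAUGGCU with each of them. miR-706 and miR-5121 share no run of 9 bases or more with them. Whether 1 RNA species gave the common signal was not tested.

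miR-6481 (38.8, 22.4, 18.6 and 35.3) and miR-7005-5p (78.2, 113, 122 and 176, with a CV of 33.3%, and 20.9% without sham 6) completed the 8 most uneven miRNAs. In all, 41 miRNAs had a CV of 20% or more, of which 21 were highest on sham 6 and 30 lowest on sham 2. Of all 318 detected miRNAs, 114 were highest on sham 6 and 200 lowest on sham 2 under the same scaling. With scaling to the summed signal there were 36 with a CV of 20% or more, and 30 were common to both. Of the 41, 31 (75.6%) had a catalogue number of 1000 or more, against 38.4% of all detected miRNAs. Among the 41, miR-574-5p, miR-3082-5p and miR-1187 carry GU repeats, and miR-3082-5p shares GAGUGUGUGUGU with miR-574-5p.

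**Figure D4:**
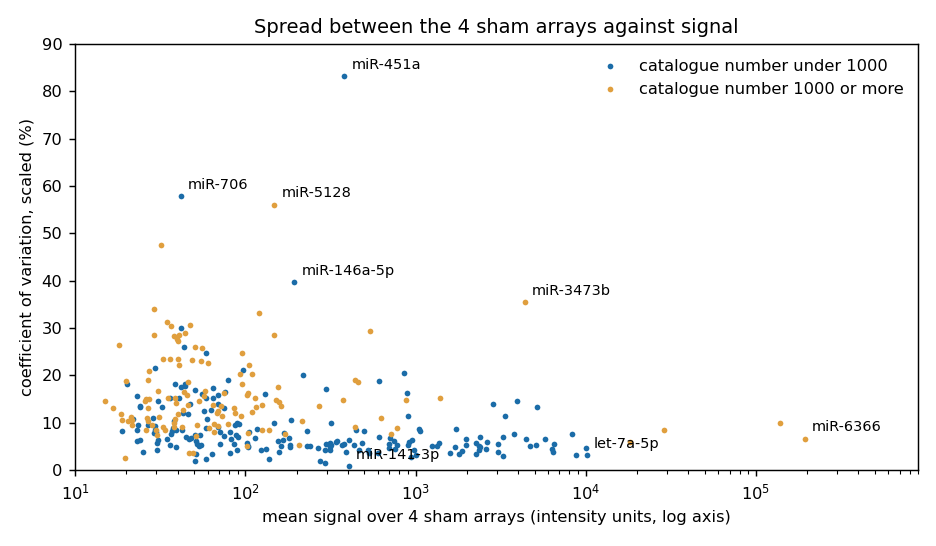
Coefficient of variation (%) of the scaled signal over the 4 sham arrays against mean signal (intensity units, log axis) for the 318 detected miRNAs, coloured by catalogue number. Dim miRNAs spread more, most points above 20% carry a number of 1000 or more, and miR-451a lies highest at 83.2%.

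**Figure D5:**
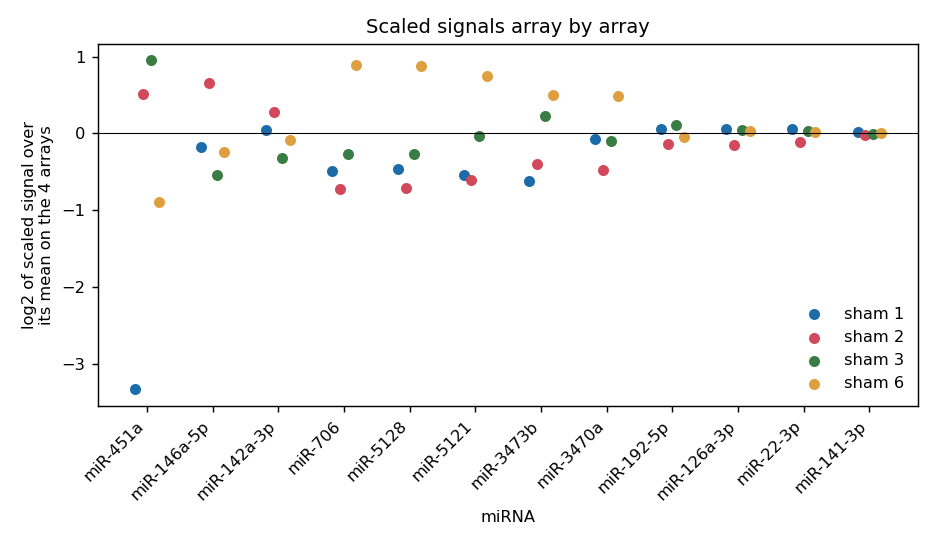
Log2 of the scaled signal over its mean on the 4 sham arrays, for 12 named miRNAs, with 1 point per array. miR-451a is low on sham 1 and high on sham 3, miR-146a-5p and miR-142a-3p are high on sham 2, miR-706, miR-5128, miR-5121, miR-3473b and miR-3470a are high on sham 6, and the 4 miRNAs on the right differ little.

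Catalogue numbers, given in order of registration, separated the detected miRNAs. Of 819 miRNAs on the array with a number under 1000, 196 (23.9%) were detected, of 348 numbered from 1000 to under 6000, 51 (14.7%), and of 714 numbered 6000 or more, 71 (9.94%). Of all signal these groups held 31.0% ± 0.885, 34.2% ± 1.09 and 34.8% ± 0.3. The remaining signal leaves out the 4 bright late entries, all numbered 1000 or more. Of it the first group held 90.8% ± 1.33, with medians of 151 units and a CV of 6.66%. The middle group held 5.78% ± 1.05, with medians of 79.1 units and a CV of 13.5%. The last held 3.46% ± 0.305, with medians of 45.4 units and a CV of 14.2%. Outside the 4 bright late entries, only miR-3473b and miR-1224-5p (1396 ± 224 units) of the miRNAs numbered 1000 or more exceeded 1000 units.

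Base content differed along the same line. Detected miRNAs numbered under 1000 had a median G and C content of 45.5% against 47.6% for undetected ones, while those numbered 1000 or more had 61.9% against 54.5%. A first base U, which Argonaute proteins prefer, was found in 50.6% of the detected and 29.4% of the undetected miRNAs numbered under 1000, and in 35.8% and 45.3% of those numbered 1000 or more. By signal, miRNAs that start with U held 53.9% ± 0.348 of all signal and 74.2% ± 1.22 of the remaining signal. The 168 and 106 detected miRNAs compared have RefSeq sequences, and no test was made on these shares.

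The labelled tissue was set against 14 lists of miRNAs chosen for cell types, tissues or genomic groups. For comparison, the 318 miRNAs detected on all 4 arrays are 16.9% of all miRNAs on the array, and the 1483 detected on none are 78.8%. Of the 14 kidney tubule miRNAs 13 were detected, all but miR-215-5p, and they summed to between 26743 and 37115 units per array, or 5.46% ± 0.186 of the signal. The brightest were miR-30a-5p, miR-30c-5p and miR-192-5p. miR-204-5p, known from proximal tubule and retina and encoded within Trpm3, was dim among them at 81.0 ± 12.7 units. All 5 miR-200 family miRNAs were detected, at 1.43% ± 0.0588 of the signal.

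The miRNAs listed for endothelium, for vessel wall and fibroblasts and for white blood cells were detected as well. Of the 4 red cell miRNAs only miR-451a was detected on all 4 arrays. Both endothelial miRNAs were detected, at 0.804% ± 0.0185 of the signal, nearly all from miR-126a-3p. All 6 vessel wall and fibroblast miRNAs were detected, at 0.357% ± 0.0282, led by miR-143-3p (703 ± 54.9 units) of smooth muscle, miR-199a-3p (694 ± 72.5) and miR-199b-5p (229 ± 20.1). All 6 white blood cell miRNAs were detected at 0.112% ± 0.0176, led by miR-142a-3p (298 ± 80.4), miR-223-3p (114 ± 13.8) and miR-342-3p (105 ± 10.04). miR-150-5p of lymphocytes (36.2 ± 5.76) and miR-155-5p of activated leukocytes (47.8 ± 8.14) were near the dim end.

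The lists of other organs were short, with 2 to 11 miRNAs each. No miRNA of 4 lists was detected on any sham array: liver (miR-122-5p and miR-122-3p), pancreas (miR-375-3p and the miR-216 and miR-217 miRNAs, 5 in all), the pluripotent cell clusters miR-290 and miR-302 with miR-367-3p (11 miRNAs) and the X-linked testis cluster (8 miRNAs). The highest single reading in them was 0.258 units for liver, 6.13 for pancreas, 25.2 for the pluripotent list and 1.42 for the testis list. Another rule counted a miRNA if any 1 of its spots, outliers included, carried the software's well-above-background flag on at least 1 array. By it miR-122-3p on sham 6 and miR-375-3p on sham 3 were counted, and 2 lists stayed empty. Their summed signals there were only -4.39 and 3.63 units, so this rule does not show these miRNAs above background.

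The detected share of the muscle list (14.3%) was near that of the whole array, and that of the nerve list (33.3%) rests on 2 miRNAs. Of 7 striated muscle miRNAs only miR-1a-3p was detected on all arrays (24.0 ± 3.98 units), and miR-133a-3p, miR-206-3p, both miR-208 miRNAs and miR-499-5p were detected on none. Of 6 nervous system miRNAs miR-219a-5p (42.3 ± 8.1) and miR-9-5p (30.6 ± 7.19) were detected on all arrays. Both arms of miR-124, the main miRNA of neurons, were detected on none. A reading below detection sets no level at 0, and these miRNAs may be present under the detection limit.

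The border of detection was set mainly by sham 6. Of the 26 miRNAs detected on 3 of 4 arrays, 23 were missed on sham 6, 2 on sham 3, 1 on sham 2 and 0 on sham 1. The dimmest detected miRNAs were miR-3077-5p (15.0 ± 2.92 units), miR-6238 (16.7 ± 0.585), miR-6392-3p (18.1 ± 3.68), miR-6939-5p (18.6 ± 2.09) and miR-139-3p (18.7 ± 2.31). The brightest outside were let-7b-3p (47.3 ± 4.15), let-7f-1-3p (45.5 ± 4.48), miR-574-3p (40.5 ± 8.95), miR-705 (39.0 ± 12.6) and miR-721 (35.5 ± 7.77). These are opposite ends, the 5 dimmest included and the 5 brightest excluded miRNAs, and do not describe the excluded miRNAs as a whole. That these excluded miRNAs were the brighter shows only that no fixed signal set the border. The software sets detection by the error of each probe. A further 27 miRNAs were detected on 2 arrays, 27 on 1 and 1483 on none.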

How the data were processed

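The deposited scanner files give linear spot intensity. Per the file headers, Agilent Feature Extraction 12.0.3.1 took off a fitted background surface and marked outlier spots, without normalizing between arrays. The authors' value table gives a linear ratio per miRNA, and its making is not stated in the sources used here. Over the sham arrays it equalled total gene signals times 1 factor per array, with scale rule and centring unknown and a higher ratio meaning more signal. Its medians were 0.859, 1.23, 1.29 and 1.3 for sham 1, 2, 3 and 6, and it served as an alternative only.

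Control spots and outliers were left out, gProcessedSignal was averaged over the spots of a probe of the 4415 probes and summed per miRNA, and miRNAs called detected by the software on all 4 sham arrays were kept. Groups came from the sample titles. Percentages are shares of the summed signal of the 318 detected miRNAs, as mean ± SD over 4 arrays. No comparison between groups and no test was made. Functions were tested on simulated data. Alternatives covered detection, value per miRNA, background (normexp, offset 50, limma 3.58.1), families, arm margin and scaling. Computation used pandas 2.3.3 and R 4.3.3.

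The 318 members, lists and alternatives were chosen with earlier results of these data known. Named were the 20 brightest, the 8 most and 8 least even miRNAs, both arms of the 10 brightest precursors, 5 miRNAs on each side of detection and the 3 brightest of each list. Others, such as miR-17-5p, miR-140, miR-652, miR-10b-5p, miR-107-3p and the miR-3473 relatives, were chosen after their values were seen. RefSeq (GRCm38.p6) gave sequences, gene names and neighbourhood only, and positions are the array's mm9 probe targets.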

Additional observations from a re-analysis of the deposited data

Results flagged for a closer look

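Of 66 values checked, 4 had 1 sham array far from the other 3, with a gap to the nearest of 0.83 to 0.911 of the whole range. Chance gives such a gap in about 1 in 20 groups of 4, so a few are usual. miR-126a-3p was low on sham 2, at a scaled signal of 4027 against 4585 for the nearest array. miR-22-3p was low on sham 2 as well, at 4338 against 4771. Both were seen after scaling by percentile and depend on it: as a percent of the summed signal miR-126a-3p was 0.794, 0.769, 0.758 and 0.792 on sham 1, 2, 3 and 6, and miR-22-3p 0.832, 0.828, 0.781 and 0.824, each lowest on sham 3. miR-199b-5p was low on sham 1, at 201 against 236, and miR-342-3p was high on sham 6, at 117 against 102. The miR-451a values did not meet this measure, since they are spread over the whole range.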

How the results depend on the processing

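The detected count was 309 to 398 under the other detection rules, 318 to 341 leaving out 1 array each. The share of the 10 brightest (74.5%) was 76.3% with the brightest probe alone, 69.6% with normexp, 74.0% over all miRNAs and 36.8% without the 4 late entries, the last chosen after seeing the data. The share of the 5 brightest families (73.9%) was 74.5% with total gene signals, 75.9% with the brightest probe, 69.0% with normexp, 73.4% over all miRNAs, 74.4% by catalogue number and 46.5% without the late entries. The arm counts (125 for 5p, 77 for 3p) fell to 48 and 36 with normexp, whose offset raises dim arms, and to 10 and 12 with both arms detected. At a 4-fold margin they were 91 and 51. The median CV stayed between 6.65% and 12.9% under all settings run. The 4 empty lists stayed 4 with the well-above-background flag of any spot required on all 4 arrays. They became 2 with that flag on at least 1 array, a rule added after seeing the data. Leaving out 1 array moved none of these counts by over 1.5 times, but the CV of miR-451a ranged from 54.3% to 112%, that of miR-706 from 13.1% to 65.2% and that of miR-5128 from 12.8% to 63.3%. The last 2 were lowest without sham 6. No paired analysis was possible because no result comes from a test between groups. The number of arrays, 4, and signal over background limit the precision, most for miRNAs under 100 units.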

Other observations

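A pair of lists held miRNAs of an imprinted region and of names that expanded in rodents. Of all miRNAs on the array, 16.9% were detected on all 4 sham arrays and 78.8% on none. Of 34 miRNAs listed for the imprinted Dlk1-Dio3 region, 31 were detected on no sham array, and miR-494-3p (2885, 2877, 2654 and 3052 units on sham 1, 2, 3 and 6), miR-370-3p (29.4 ± 2.51) and miR-487b-3p (23.1 ± 5.59) were detected on all 4, or 8.82% of the list. miR-494-3p ranked 25th by signal while its listed neighbours were dim or undetected, and it was highest on sham 6, where 184 of the 318 detected miRNAs had their lowest unscaled signal.

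The other list was built by name, from miRNAs named miR-297, miR-466, miR-467 and miR-669, a group best known for a placental cluster within the Sfmbt2 gene. A name does not give the position: RefSeq places Mir669n inside Slc30a7. Of the 61 listed, 9 (14.8%) were detected on all 4 arrays, 2 on some and 50 on none, close to the share of the whole array. The brightest was miR-466i-5p (607 ± 50.1 units), followed by miR-669p-3p (131 ± 10.5) and miR-467f (75.8 ± 7.56). The median CV of these 9 was 16.6%, and that of all detected miRNAs 9.12%. Many miRNAs with these names resemble each other, and how far their probes share signal was not tested.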
